A study of Mus musculus with 61 samples.

Results

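Interferon-stimulated genes were examined as 34 members: the 4 receptor chains for interferons, the genes that carry or brake their signal, the sensors of foreign RNA and DNA, and the antiviral effectors that the signal switches on. The measurement was H3K27ac, the acetylation of lysine 27 of histone H3 that marks active promoters and enhancers, read by ChIP-seq in windows of 1000 bp on open chromatin of microglia. Each window carries the name of the gene with the nearest transcription start site (TSS), and a member's windows were those that carried its name. The table held 261 such windows for 32 members among 133129 windows and 19040 gene names in all. The H3K27ac of Oas2 and Oas3, which make the short RNA that activates RNase L, was not analysed here. A window was tested where its mean over the 4 libraries was above 16 normalized tags, which kept 137 of the 261 member windows, for 29 members, and 55285 windows in all. Ifit1, Ifit2 and Cmpk2 had windows but none that passed.

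The study deleted the microglial enhancer of Sall1, a transcription factor of microglia, and asked how the chromatin of these cells changes without it. EKO mice carry a homozygous deletion of that enhancer, made with CRISPR/Cas9, and their line was crossed to C57BL/6J for at least 3 generations. They were set against WT mice, with C57BL/6J among the mice listed, and adult males were used. Whether the WT mice were littermates is not given in the sources used here. Whole microglia were sorted from brain by a gate on CD11b, CX3CR1 and low CD45, with 2 EKO and 2 WT libraries for H3K27ac. H3K27ac was also measured in nuclei sorted for PU.1 (a factor of microglia and other myeloid cells), NeuN (neurons) or Olig2 (oligodendrocyte lineage), each with 2 EKO and 2 WT libraries. Peak lists were given for SALL1 in EKO, WT and the wild-derived strains PWK and SPRET, for SMAD4 in a mutant and a WT group, and for the co-activator p300 in WT. For SMAD4, the titles and genotypes of the mutant group give a conditional deletion of Smad4 itself, whereas their descriptions and the study's text give EKO, so the group is called mutant only. Library 1 of p300 is labelled microglia and its libraries 2 and 3 PU1 nuclei, and the SALL1 libraries are labelled microglia where the text names nuclei. Nothing in the labels says that the libraries of a group came from separate animals, so p-values measure the spread between these libraries, which may be technical.

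Type I interferons bind the receptor made of IFNAR1 and IFNAR2, and interferon gamma binds IFNGR1 with IFNGR2. The type I signal activates a complex that holds STAT2 and IRF9 and binds the interferon-stimulated response element (ISRE) in promoters, while interferon gamma acts on the gamma-activated site (GAS). In brain, microglia keep a low level of this programme at rest and raise it with infection, ageing and injury.

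Several promoters of the members carry that element, and the sequences of some are shown. The members were chosen as interferon-stimulated genes, so the share with an ISRE is not separate from that choice. An ISRE was searched as GAAA, any 2 bases, GAAA, on both strands, in the RefSeq promoters of GRCm38.p6, which run from 250 bases before to 50 bases after the start. Of the 25 members with an entry, 11 (44%) had at least 1 match, against 1079 of 27025 genes (3.99%). Usp18, Oas2, Mx1, Mx2, Dhx58, Rtp4, Parp9, Parp14 and Zbp1 had no entry. The 4 stretches below are the 140 bases before the start of 4 members with matches, 5′ to 3′ on the strand of the gene, with each match in capitals. The capitals of Isg15 and Bst2 run through overlapping matches, 3 in Isg15 and 2 in Bst2.
Isg15 (chr4:156200819-156200958, minus strand): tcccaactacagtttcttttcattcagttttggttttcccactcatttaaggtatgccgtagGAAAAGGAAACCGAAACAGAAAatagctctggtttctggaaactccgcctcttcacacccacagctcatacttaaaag
Bst2 (chr8:71537473-71537612, minus strand): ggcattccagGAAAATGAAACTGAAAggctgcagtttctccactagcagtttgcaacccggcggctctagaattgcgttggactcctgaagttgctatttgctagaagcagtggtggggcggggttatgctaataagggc
Ifit1 (chr19:34640749-34640888, plus strand): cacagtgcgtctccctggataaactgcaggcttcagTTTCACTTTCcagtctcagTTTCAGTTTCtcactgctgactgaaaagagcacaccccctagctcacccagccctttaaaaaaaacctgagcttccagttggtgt
Ifit3 (chr19:34583389-34583528, plus strand): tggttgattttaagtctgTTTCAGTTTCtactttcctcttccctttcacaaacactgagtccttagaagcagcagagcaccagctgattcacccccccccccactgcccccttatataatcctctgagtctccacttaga

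The motifs were also searched in the H3K27ac windows. The TSS window of a gene was its window nearest to a start site within 3000 bp, and 31 members had one, 28 of them tested. An ISRE match lay in 18 of these 28 windows (64.3%), against 975 of 9605 tested TSS windows of all genes on assembled chromosomes (10.2%). A GAS, searched as TTCNNNGAA, lay in 11 of the 28 (39.3%) against 20.4% of all, and a PU.1-IRF composite, searched as GGAA, any 1 base, TGAAA, in 1 of the 28 (3.57%) against 2.11%. A further 3 stretches are shown because their windows gained H3K27ac in EKO microglia; they are read on the plus strand of GRCm38.p6 with matches in capitals. They are examples: 5 of the 27 gaining member windows held an ISRE (18.5%), against 17.1% of all gaining windows, 29.2% of all tested member windows and 14.4% of all tested windows. The Zbp1 stretch holds 4 matches just upstream of its start, the Oasl1 stretch 1 match upstream, and the Samhd1 stretch 1 of the 2 matches in an intronic window.
Zbp1 (chr2:173218934-173219047): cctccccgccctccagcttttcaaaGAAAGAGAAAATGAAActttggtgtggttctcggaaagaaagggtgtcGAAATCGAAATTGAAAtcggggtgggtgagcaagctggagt
Oasl1 (chr5:114922942-114923001): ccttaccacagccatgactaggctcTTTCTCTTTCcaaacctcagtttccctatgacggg
Samhd1 (chr2:157129655-157129714): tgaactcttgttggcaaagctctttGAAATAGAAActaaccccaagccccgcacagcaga

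The libraries differed in depth and scale. The values, in normalized tags per 10000000, are whole multiples of what 1 tag is worth, which gave depths of 9963454 and 13392914 tags in EKO libraries 1 and 2 and 24357795 and 10047696 tags in WT libraries 1 and 2. EKO library 1 was high throughout, where the tested windows had a median of 6.41 on the log2 scale, against 4.95 in EKO library 2 and 5.57 and 5.20 in the WT libraries. Libraries were therefore quantile normalized over the tested windows before limma compared EKO with WT, and a window was called gaining or losing where its Benjamini-Hochberg adjusted p over all tested windows was below 0.05 and its change above 2-fold. SALL1 peaks numbered 7 in EKO and 15410 in WT. Markers of other cells moved with the genotype: of the tested windows of 9 border-associated macrophage genes, 23 of 38 gained and 0 lost, and their 5 tested TSS windows summed, on the quantile scale, to 292 and 363 in EKO libraries and 93.3 and 91.9 in WT libraries. Monocyte genes had 14 gaining and 3 losing of 29 windows, with sums of 324 and 322 over 2 TSS windows in EKO and 64.3 and 56.1 in WT. The monocyte gains lay at Ccr2 and Itga4 only, the losses at Nr4a1 and Plac8, and 1 of the 2 TSS windows was called gaining. Over all tested windows the shares were 8.68% gaining and 7.56% losing. None of these marker lists had a TSS window at 0 in all 4 libraries. A tested window cannot be at 0 in all 4, since its mean must be above 16 tags. The neuron genes had 0 tested TSS windows. Lymphocyte genes had 6 gaining of 15, dendritic cell genes 4 gaining and 1 losing of 31, and microglia genes 1 gaining and 36 losing of 164. Astrocyte genes had 0 gaining and 14 losing of 19, all at Slc1a3, and oligodendrocyte genes 0 gaining and 8 losing of 17. The 1 tested window of the neuron genes was not called. The part of these shifts in the results below was not tested, and more cells of a type and more mark per cell cannot be told apart.

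Most called windows of the interferon genes gained H3K27ac in EKO microglia. Of their 137 tested windows, 27 gained (19.7%) and 2 lost (1.46%), beside 8.68% gaining and 7.56% losing over all tested windows. The median log2 change over the member windows was 0.33, against -0.03 over all tested windows. The 27 gaining windows belonged to 9 members, with 10 windows at Zbp1 and 6 at Ifnar2; without the Zbp1 windows, 17 of 107 gained (15.9%). Windows overlap, and merged into stretches they gave 17 of 73 stretches with a gaining window, beside 10.7% of all stretches. Distal windows, over 3000 bp from a start site, gained in 21 of 77 cases and lost in 2, beside 11.6% and 11.0% over all distal windows. Promoter-side windows gained in 6 of 60 cases and lost in 0, beside 5.08% and 3.31%.

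The calls depended on how the libraries were put on one scale. With the values as deposited, where EKO library 1 stays high and the spread within EKO is wide, limma called 1 member window as gaining, beside 0.814% of all windows, and the median was 0.64 for the members and 0.28 for all windows. On the recovered tags, edgeR's quasi-likelihood test called 33 gaining and 1 losing, beside 10.3% and 7.32% of all windows, and DESeq2 called 24 gaining and 1 losing, beside 7.76% and 5.13%. Leaving out EKO library 1 or WT library 1 left limma without a member call, while edgeR still called member windows. The share of all windows that edgeR called with these omissions was not analysed here. Its member medians were 0.42 without EKO library 1 and 0.43 without WT library 1, against 0.01 over all windows in each. The filter also matters for such counts, since 41 of the 137 windows had a WT mean at or below 16 tags and passed through EKO, against 3 the other way round. Of the 27 gaining windows 19 were among these 41, and 2 of the 5 gaining at start sites (Oasl1 and Zbp1), as were 2933 of the 4800 gaining windows of all genes. With no filter, 20 of 261 member windows gained and 0 lost, beside 2.89% gaining over all windows.

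**Figure D1:**
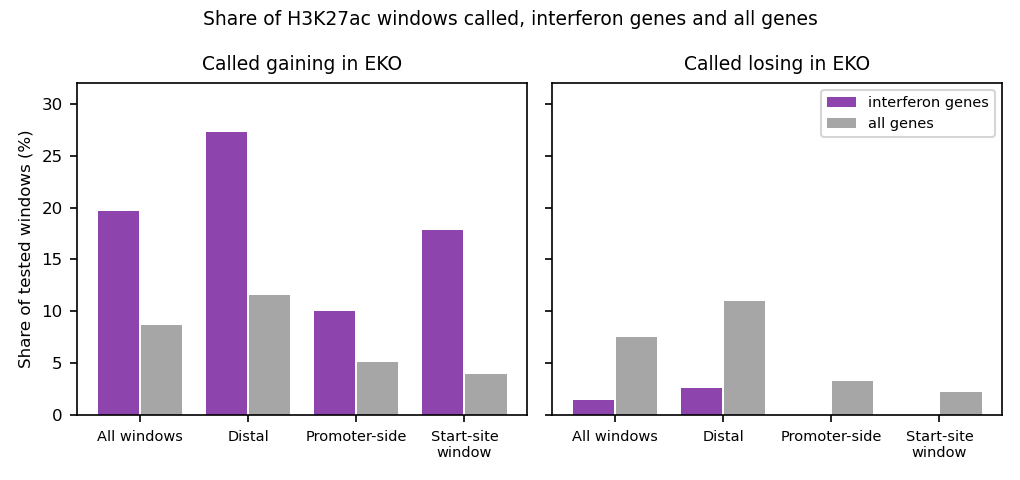
Bars give the share of tested H3K27ac windows called gaining (left) or losing (right) in EKO microglia, in percent, for the interferon genes (purple) and for all genes (grey). The interferon genes stand higher for gains, 27.3% against 11.6% in distal windows, and lower for losses, 2.60% against 11.0%.

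At the start sites the members lay mostly above 0. Over the 28 tested TSS windows the median log2 change was 0.46, against 0.04 over the 9609 tested TSS windows of all genes, and 23 of 28 were above 0, against 54.8% of all. With 2 EKO and 2 WT libraries on the quantile scale, both EKO libraries stood above both WT libraries in 18 of the 28, beside 30.2% of all TSS windows, and below them in 3, beside 22.3%. Trim25, Oasl1, Zbp1, Isg20 and Bst2 were called gaining and 0 were called losing, beside 3.92% and 2.25% of all TSS windows. With edgeR, Oasl2 and Usp18 were called as well, 7 in all, beside 4.57%. With no filter, where all 31 TSS windows enter, the same count of 5 was called, beside 1.98%, and the median was 0.50 against 0.04 for all genes. The 4 TSS windows of the receptors had a median of 0.05, and the 24 of the other members a median of 0.54. The difference between these medians was not tested.

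**Figure D2:**
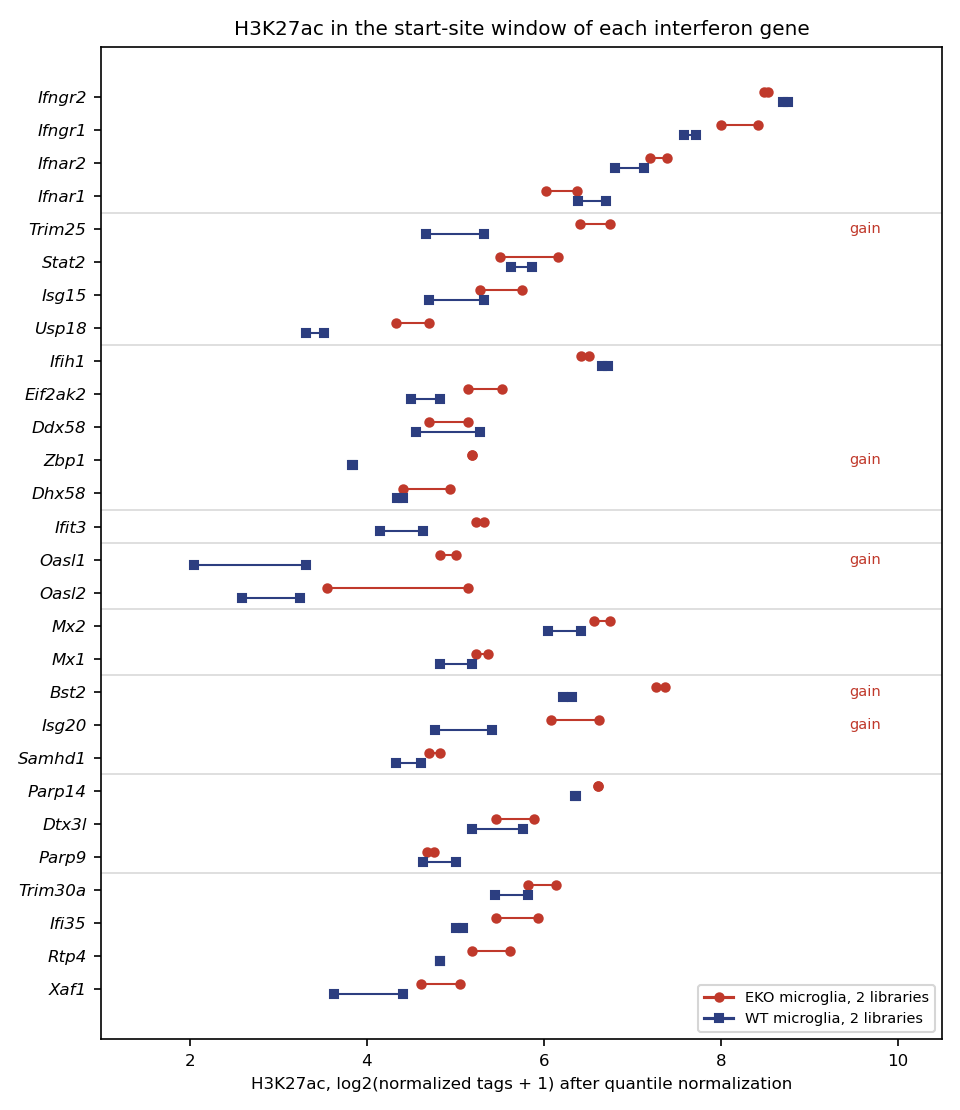
Points give the level of H3K27ac in the TSS window of each interferon gene, as log2(normalized tags + 1) after quantile normalization, for the 2 EKO libraries (red circles) and the 2 WT libraries (blue squares), with genes grouped by role and called windows marked "gain". Red lies to the right of blue in most rows, and left of blue for Ifngr2, Ifnar1 and Ifih1.

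Of the 47 tested receptor windows 7 gained and 0 lost, beside 8.68% and 7.56% of all tested windows, with a median of -0.05. Of the 7, 6 were named for Ifnar2, and some of these overlap. Ifnar2 had windows called gaining upstream and not at its start. At its window at -5956 bp (chr16:91366327-91367327, mm10), between genes, the 2 EKO libraries had 339 and 111 tags, against 43.1 and 50.8 tags in the WT libraries. Both EKO values were above both WT values, and the log2 change was 1.75 ± 0.23 (SE; limma adjusted p = 1.03e-05). The overlapping window at -5448 bp changed by 1.70 and that at -6774 bp by 1.74. Windows at -13343, -20453 and -25154 bp changed by 2.43, 1.41 and 2.10, so that 6 of the 14 tested windows gained. They carry the name by the nearest start, so whether they act on Ifnar2 is not known. The deposited values of the groups overlapped at its start, where EKO libraries had 279 and 102 tags and WT libraries 123 and 106 tags, a log2 change of 0.33 ± 0.19 that did not pass (limma adjusted p = 0.224). The highest Ifnar2 window, at -17393 bp, held 801 and 320 tags in EKO and 434 and 266 tags in WT and was not called either, with a log2 change of 0.30.

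Ifnar1, the other chain of the type I receptor, lies downstream of Ifnar2 on chromosome 16 and had 1 tested window. Its TSS window had 155 and 41.1 tags in EKO libraries and 90.3 and 78.6 tags in WT libraries. The log2 change was -0.34 ± 0.23 (SE; limma adjusted p = 0.307). The deposited values of the 2 groups overlap here. On the quantile scale both EKO libraries (6.37 and 6.03) were below both WT libraries (6.39 and 6.70), with little between EKO library 1 and WT library 1.

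Of the interferon gamma receptor, Ifngr2 carried the highest TSS window of all members, with 693 and 228 tags in EKO libraries and 463 and 321 tags in WT libraries. The log2 change was -0.22 ± 0.12 (SE; limma adjusted p = 0.191), and with the values as deposited it was 0.05. All 15 tested windows of Ifngr2 had a log2 change below 0, between -0.96 and -0.12, and 0 were called. Several of these windows overlap, so they are not 15 separate readings. Of all tested windows, 48.0% were above 0. The count of Ifngr2 windows below 0 was 15 with DESeq2 size factors, edgeR and DESeq2, and 12 with the values as deposited. Ifngr1, the ligand-binding chain, had 494 and 211 tags at its start in EKO and 237 and 142 tags in WT, a log2 change of 0.56 ± 0.16 (SE) with a limma adjusted p of 0.0124 that stayed under the 2-fold limit. Its window at -31961 bp gained, with 150 and 34.4 tags in EKO against 31.6 and 23.9 tags in WT and a log2 change of 1.05 ± 0.30 (limma adjusted p = 0.0127), just inside that limit. The call was lost with a pseudocount of 5 (0.96), with no filter (limma adjusted p = 0.0703) and with edgeR without EKO library 1 (0.83, adjusted p = 0.165). The 17 tested Ifngr1 windows ran from -0.88 to 1.41, with 1 called.

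**Figure D3:**
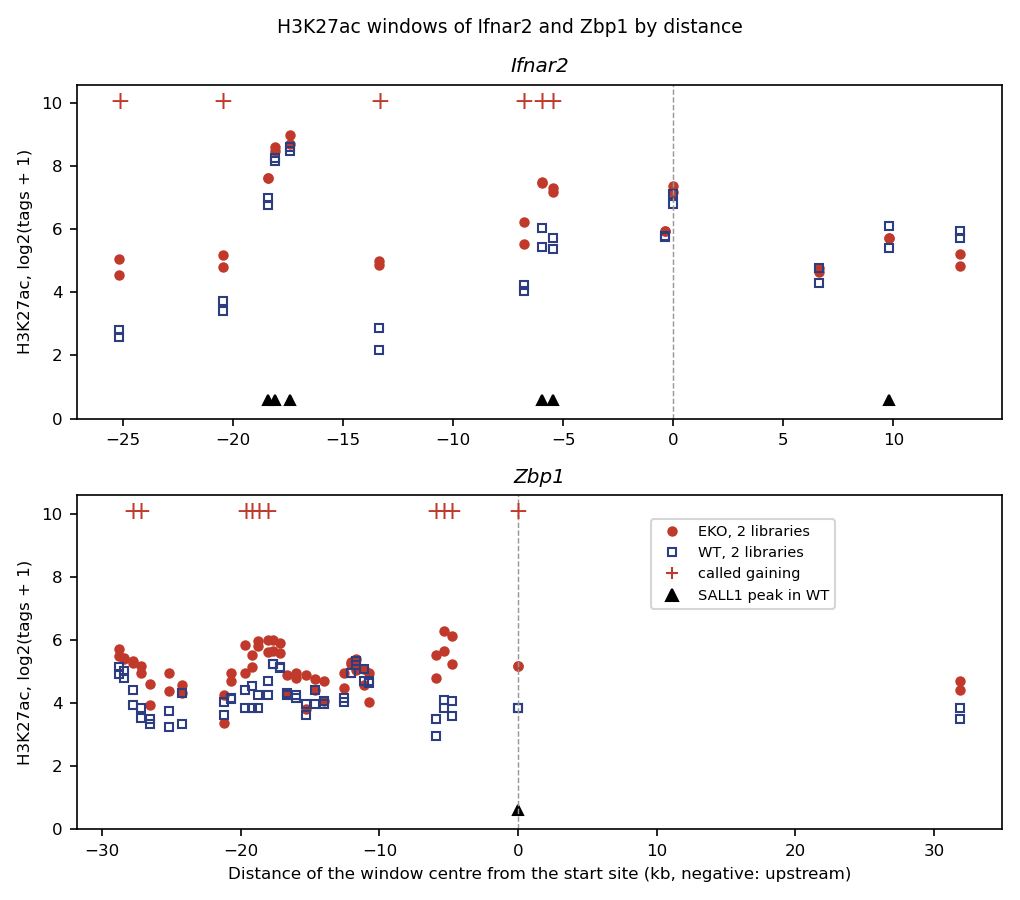
Each point is a tested H3K27ac window of Ifnar2 (top) or Zbp1 (bottom), at its distance from the start site in kb, with the level as log2(tags + 1) after quantile normalization in 2 EKO libraries (red) and 2 WT libraries (blue); plus signs mark windows called gaining and triangles WT SALL1 peaks. The 6 gaining Ifnar2 windows lie upstream, between -25154 and -5448 bp, and the 10 gaining Zbp1 windows between -27778 bp and the start.

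The signalling genes showed their clearest change at Trim25, a ubiquitin ligase known for acting on the RNA sensor RIG-I. Its TSS window had 158 and 66.5 tags in EKO libraries and 23.4 and 30.9 tags in WT libraries. The groups did not overlap, and the log2 change was 1.58 ± 0.28 (SE; limma adjusted p = 0.000347). Its window at 24986 bp also gained, by 1.12 ± 0.21. Usp18, which removes ISG15 from proteins and blocks the type I receptor, had 47.2 and 13.4 tags in EKO and 8.62 and 5.97 tags in WT at its start, a log2 change of 1.10 ± 0.52 that limma did not call (adjusted p = 0.131) and edgeR did (adjusted p = 0.0341). Isg15, the ubiquitin-like modifier, changed by 0.50 ± 0.33 (limma adjusted p = 0.296) and Stat2 by 0.09 ± 0.28 (limma adjusted p = 0.862).

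Of the 41 tested sensor windows 10 gained, all at Zbp1, and 0 lost, beside 8.68% and 7.56% of all tested windows. Zbp1, which recognises nucleic acids in the Z form and can trigger cell death, had 45 windows and 30 tested ones, the most of any member. At its start the EKO libraries had 66.2 and 23.9 tags and the WT libraries 11.5 and 9.95 tags. The WT mean was below 16 tags, so this window passed the filter through EKO. Both EKO libraries were above both WT libraries, and the log2 change was 1.35 ± 0.40 (SE; limma adjusted p = 0.0177), a call lost with edgeR without WT library 1 (adjusted p = 0.0691). The other 9 gaining windows lie at -4794 to -27778 bp and are annotated to the introns or the end of Pmepa1, the neighbouring gene, whose product restrains SMAD signalling. The one with the smallest p, at -5349 bp, had 92.3 and 48.5 tags in EKO against 14.4 and 9.95 tags in WT, with a log2 change of 2.00 ± 0.35 (limma adjusted p = 0.000299). Whether these windows act on Zbp1 or on Pmepa1 is not known from this table, which assigns them by the nearest start.

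The cytosolic RNA sensors did not pass. Ifih1 (MDA5) stood among the 6 highest TSS windows, with 160 and 56.8 tags in EKO libraries and 116 and 76.6 tags in WT libraries. Its log2 change was -0.22 ± 0.21 (SE; limma adjusted p = 0.474), and 0.01 with the values as deposited. Ddx58 (RIG-I) had 64.2 and 17.2 tags in EKO and 21.4 and 29.9 tags in WT, with no difference on the quantile scale, and Dhx58 (LGP2) changed by 0.30 ± 0.41 (limma adjusted p = 0.648). Eif2ak2 (PKR), the kinase that halts translation on foreign RNA, changed by 0.67 ± 0.34 (limma adjusted p = 0.166).

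The largest change at a start site was at Oasl1, an OAS-like protein that in mouse restrains translation of Irf7. Its TSS window had 58.2 and 18.7 tags in EKO libraries and 2.05 and 5.97 tags in WT libraries. The log2 change was 2.23 ± 0.59 (SE; limma adjusted p = 0.0085). Its WT mean was below 16 tags, so this TSS window passed the filter through EKO. With WT this low the size is loosely set, at 1.66 with a pseudocount of 5 and 3.89 with edgeR without WT library 2. The window at -1186 bp, next to it and not overlapping it, had 123 and 33.6 tags in EKO against 16.01 and 3.98 tags in WT, a log2 change of 2.35 ± 0.43 (limma adjusted p = 0.000441). Oasl2, its neighbour on chromosome 5, had 64.2 and 8.21 tags in EKO and 6.57 and 2.99 tags in WT, and the log2 change of 1.43 ± 0.66 was not called by limma (adjusted p = 0.126) but was by edgeR (adjusted p = 0.00573). The EKO libraries of Oasl2 were far apart, and library 1 carried most of the difference.

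The IFIT and Mx genes, which bind viral RNA and trap viral nucleoproteins, had 0 called windows. Ifit3 had 73.3 and 24.6 tags in EKO libraries and 23.0 and 12.9 tags in WT libraries at its start. Its log2 change was 0.89 ± 0.36 (SE; limma adjusted p = 0.0806). Mx2 changed by 0.42 ± 0.22 and Mx1 by 0.30 ± 0.32 (limma adjusted p = 0.182 and 0.55). The TSS window of Ifit2 held 7.03 and 5.97 tags in EKO and 5.34 and 3.98 tags in WT, too few to test.

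Of the effectors that act on nucleotides, RNA or membranes, Bst2 and Isg20 gained at their starts. Bst2 (tetherin), which holds budding virus at the cell surface, had 292 and 100.8 tags in EKO libraries and 80.1 and 60.7 tags in WT libraries. The log2 change was 1.05 ± 0.20 (SE; limma adjusted p = 0.000518), and in edgeR without WT library 1 it stayed just under 2-fold. Isg20, an exonuclease for RNA, had 125 and 61.2 tags in EKO and 42.3 and 20.9 tags in WT, with a log2 change of 1.27 ± 0.30 (limma adjusted p = 0.00345) that fell under 2-fold in edgeR without EKO library 2 (0.91) or without WT library 2 (0.97). Both genes had every EKO value above every WT value. Samhd1, which degrades the building blocks of DNA, moved both ways: its intronic window at 5180 bp gained by 1.43 ± 0.38 (limma adjusted p = 0.00899), with 83.3 and 30.6 tags in EKO against 9.85 and 17.9 tags in WT, while its windows at -3824 and -6963 bp fell by 1.83 and 1.44 on the log2 scale. The gain at 5180 bp was not called with no filter (limma adjusted p = 0.06) or with edgeR without WT library 1 (0.99, adjusted p = 0.161). The loss at -6963 bp had a limma adjusted p of 0.0492 and was not called by edgeR (adjusted p = 0.0812) or DESeq2 (adjusted p = 0.244). Its TSS window changed by 0.29 ± 0.39. Rsad2 (viperin) and Cmpk2, which share a locus, had TSS windows that missed the filter on the mean, with 15.1 and 6.72 tags in EKO against 8.62 and 1.99 tags in WT at Rsad2, and 21.1 and 8.96 tags in EKO against 4.93 and 1.99 tags in WT at Cmpk2.

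Windows named for Parp14, which transfers ADP-ribose to proteins, gained far from its start. They carry its name by the nearest start, so whether they act on Parp14 is not known. The window at -31828 bp, between genes, had 80.3 and 43.3 tags in EKO libraries and 0 and 5.97 tags in WT libraries. Its log2 change of 4.02 ± 0.75 (SE; limma adjusted p = 0.00053) was the largest of any member window, and it was the 1 member window called without rescaling. With DESeq2 its adjusted p was 0.315. With WT near 0 its size is loosely set, at 2.79 with a pseudocount of 5, 2.33 without WT library 1 and, with edgeR, 9.57 without WT library 2. The overlapping window at -32085 bp changed by 3.84 and the one at -31125 bp by 2.19. At the start, 183 and 60.5 tags in EKO stood beside 88.3 and 62.7 tags in WT, with a log2 change of 0.25 ± 0.21 (limma adjusted p = 0.423). Parp9 and Dtx3l, partners in one complex, share a promoter region and changed by -0.10 ± 0.37 and 0.20 ± 0.30 there. The 4 other induced genes had 0 called windows, with TSS changes of 0.34 (Trim30a), 0.58 (Rtp4), 0.65 (Ifi35) and 0.82 (Xaf1), all above 0.

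**Figure D4:**
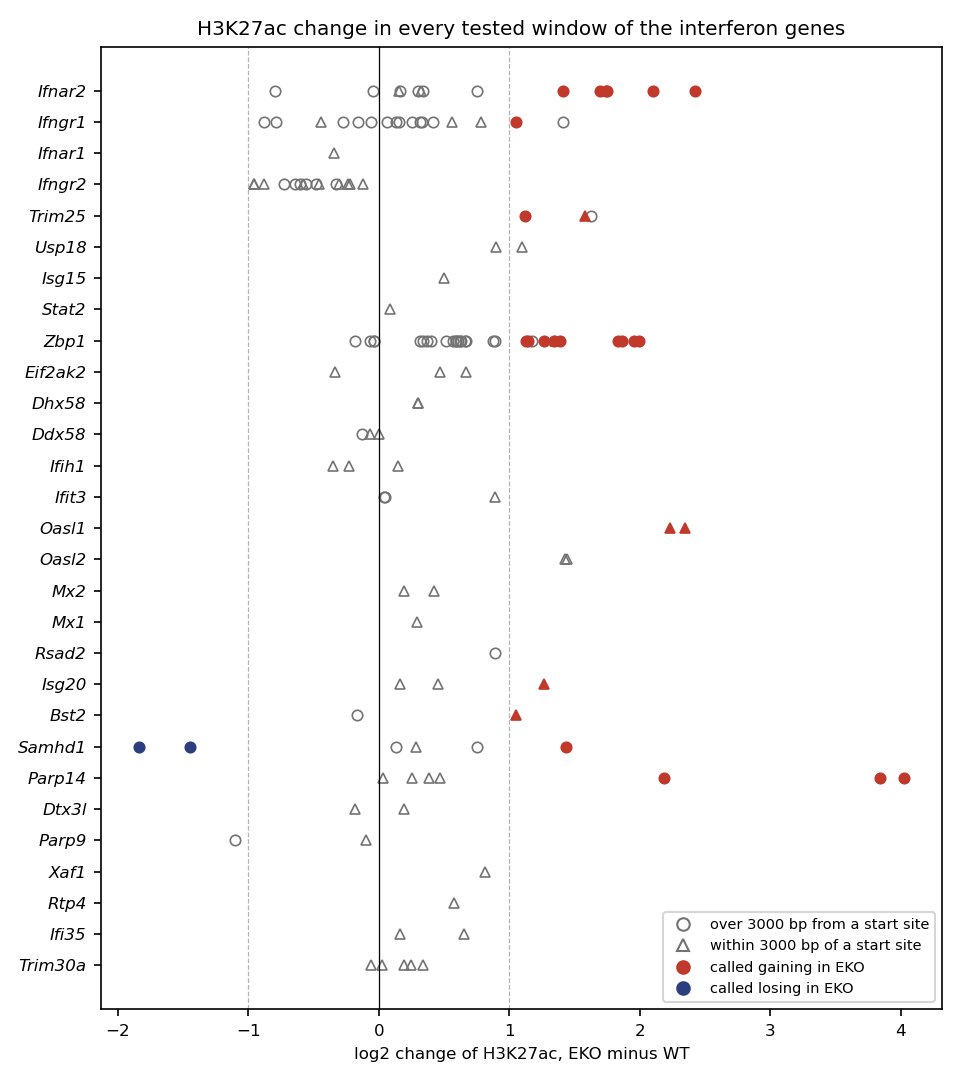
Every tested H3K27ac window of the interferon genes at its log2 change, EKO minus WT, with circles for windows over 3000 bp from a start site and triangles for nearer ones; red is called gaining, blue losing, and dashed lines mark 2-fold. The gains gather at Ifnar2, Zbp1, Oasl1, Trim25 and Parp14, the 2 losses are at Samhd1, and all 15 Ifngr2 windows, several of them overlapping, lie left of 0.

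A wider list of 132 other interferon pathway genes was read the same way. Of their 496 tested windows 39 gained (7.86%) and 24 lost, a share of gains near the 8.68% of all tested windows, and the median was 0.02. Further interferon-stimulated genes had 23 gaining and 6 losing of 184 windows and 6 of 51 TSS windows gaining, while kinases, STATs and suppressors had 3 gaining and 13 losing of 115, IRF factors 4 and 3 of 102, and nucleic acid sensing genes 3 and 1 of 79. Interferon ligands had 6 gaining, all named for Ifnk, and 1 losing of 16 windows. These differences between lists were not tested. Of the 8 genes with the smallest p, the largest change was at Ifi207, of the family of DNA-binding PYHIN proteins: its TSS window had 756 and 249 tags in EKO and 10.7 and 8.96 tags in WT, a log2 change of 4.87 ± 0.23 (limma adjusted p = 3.3e-11). Ifitm2, which blocks viral entry, changed by 3.68 (209 and 96.3 tags in EKO, 11.9 and 3.98 in WT) and Ifi204 by 2.41 (284 and 93.3 tags in EKO, 33.3 and 17.9 in WT). PYHIN genes lie in a cluster of near-identical copies, so reads may be split between them. Windows near Ifnk (3.41), Trafd1 (3.10), Gbp3 (3.24), Ptpn1 (1.69) and Ifi47 (2.98) gained as well, with limma adjusted p between 7.48e-06 and 6.9e-05; those named for Ifnk and Ptpn1 lie at -20293 and -117010 bp.

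SALL1, SMAD4 and p300 peaks were set against the member windows, and these shares carry no test. The WT lists of SALL1 and SMAD4 used here, with 15410 and 4024 peaks, are shorter than the sets the study describes, so a window without a listed peak may lie in a peak not analysed here. SALL1 peaks of WT microglia overlapped 34 of the 261 member windows, at 13 members, and 25 of the 137 tested ones (18.2%), against 26.4% of all tested windows. SMAD4 peaks of WT overlapped 1 of the 137 (0.73%) against 11.1%, mutant SMAD4 peaks 4 (2.92%) against 7.01%, and p300 peaks 18 (13.1%) against 20.6%. SALL1 peaks of EKO overlapped 0. Of the 27 gaining windows, 5 held a WT SALL1 peak (18.5%), against 23.0% of all gaining windows, and 0 held a p300 or SMAD4 peak, where 7.92% of all gaining windows held p300, 2.90% SMAD4 of WT and 7.50% SMAD4 of the mutant group. The 5 are the windows of Ifnar2 at -5956 and -5448 bp, which share a peak with an enrichment score of 115, of Ifngr1 at -31961 bp (148), of Samhd1 at 5180 bp (73) and of Zbp1 at its start (22).

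Ifngr1 had the most windows with a peak of any member, 7 with SALL1 and 8 with p300, and Ifnar2 had 6 and 3. The Ifnar2 window at -17393 bp held SALL1, SMAD4 of both groups and p300 together, with p300 at a score of 284 and SALL1 at 151, and its H3K27ac was high in both genotypes. Away from the receptors SALL1 lay at Dhx58, Ifi35, Trim30a, Usp18 and Zbp1 starts, and further inside or upstream of Ifih1, Ifit2, Oasl1, Parp9 and Samhd1, with scores from 15 at Usp18 and Ifih1 to 128 at Dhx58 at 1602 bp. In PWK and SPRET microglia, whose lists are shorter with 3627 and 2245 peaks, SALL1 overlapped 10 and 12 member windows, at receptors and, in SPRET, Samhd1.

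Sorted nuclei showed in which brain cells these promoters had a listed H3K27ac region. In PU.1 nuclei, EKO libraries 1 and 2 had a listed H3K27ac region at 28 and 29 of the 31 member TSS windows, and WT library 2 at 27, against 59.5%, 56.8% and 58.6% of all genes' TSS windows in the same libraries. WT library 1 listed 11149 regions in all, where the others listed 25990 to 36057, and reached 9 members. In NeuN nuclei a region was listed at 9 and 8 members in EKO and 8 and 6 in WT, against 66.9% to 70.9% of all genes, and in Olig2 nuclei at 8 and 8 in EKO and 12 and 9 in WT, against 57.9% to 62.4%. Lists hold regions at 4-fold or more over input. A missing region does not give a level, since the lists carry no depth. At the Bst2 start, PU.1 WT library 1 listed no region and WT library 2 had 61.9 tags per kb. Without PU.1 WT library 1, 13 members (Bst2, Ddx58, Dhx58, Eif2ak2, Ifi35, Ifih1, Isg15, Isg20, Oasl1, Parp14, Trim30a, Usp18 and Zbp1) had a region in every PU.1 library and in no NeuN or Olig2 library, against 680 of 15291 genes (4.45%).

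Other members were shared or lay elsewhere. Ifnar1, Ifnar2 and Mx2 had a region in all 8 NeuN and Olig2 libraries. Xaf1 was highest in Olig2 nuclei, with 163 and 195 tags per kb in EKO and 133 and 166 tags per kb in WT, against 69.4 and 69.0 in EKO PU.1 nuclei. Cmpk2 was listed in all 4 NeuN libraries, at 78.8 to 93.8 tags per kb, and Ifit2 in Olig2 and NeuN nuclei and not in PU.1 nuclei. Ifngr2 was listed in NeuN and not in Olig2 nuclei.

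The PU.1 nuclei also gave a separate reading of EKO against WT, given here as values with no test. Against the longer WT list, that of library 2, both EKO libraries had more tags per kb at 16 of 31 member TSS windows and fewer at 9, where all genes had more at 15.3% and fewer at 34.3%. A window with no listed region counts as 0 here, as Oasl2 does in WT library 2. The values are those of the whole overlapping region, so Parp9 and Dtx3l, which overlap the same region, have the same values and are counted separately. Of the starts called in whole microglia, Zbp1 had 53.6 and 40.4 tags per kb in EKO and 30.4 in WT library 2, Oasl1 31.3 and 35.5 against 16.7, Bst2 72.4 and 71.9 against 61.9, and Isg20 29.5 and 20.8 against 19.1. Trim25, with 46.6 and 34.6 against 39.5, did not separate. At the Ifnar2 window at -5956 bp, EKO nuclei had 122 and 85.5 tags per kb and WT nuclei 31.8 and 71.1. At the Parp14 window at -31828 bp, EKO nuclei had 51.9 and 33.7 tags per kb and no region was listed in WT nuclei.

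**Figure D5:**
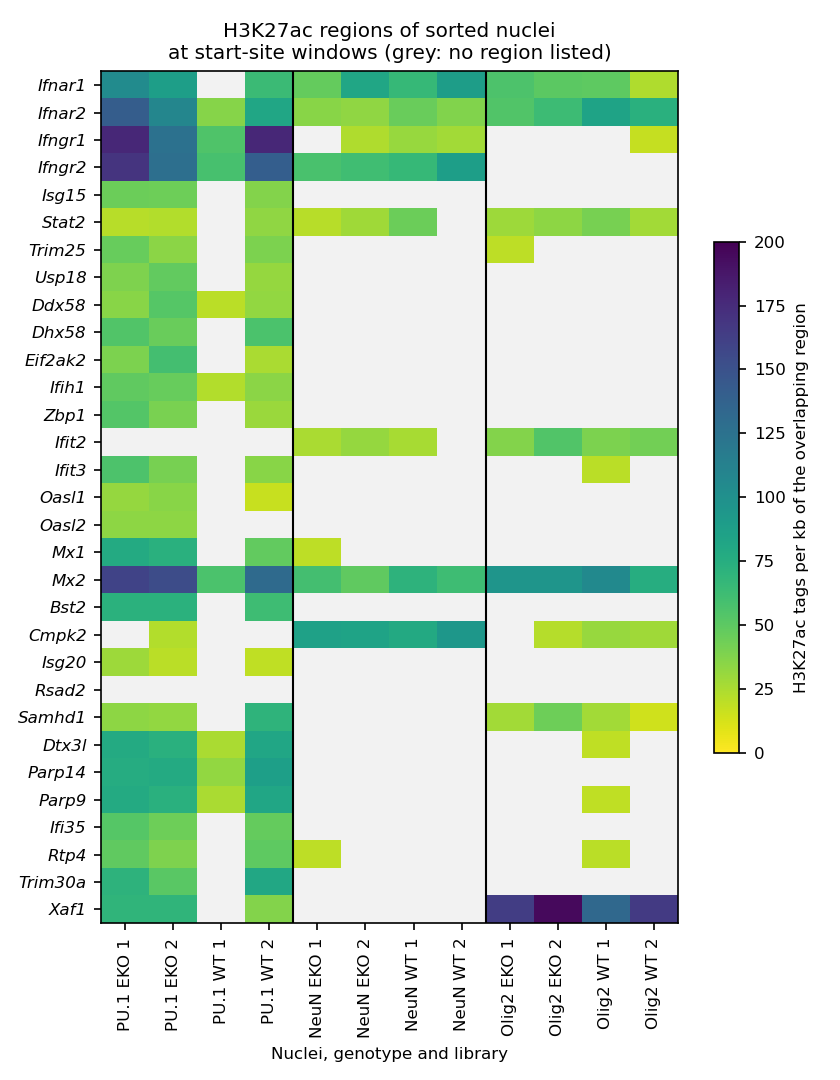
Rows are the 31 TSS windows and columns the nuclei libraries (PU.1, NeuN, Olig2, EKO left of WT in each); the colour gives H3K27ac tags per kb of the overlapping listed region and grey means no region listed. The PU.1 columns are filled for most members apart from WT library 1, which holds 9, and the NeuN and Olig2 columns hold 6 to 12.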

How the data were processed

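H3K27ac ChIP-seq of whole microglia (2 EKO and 2 WT libraries) and of sorted nuclei was used with SALL1, SMAD4 and p300 peaks. The submitters' processing notes name mm10, Bowtie2, HOMER and DESeq2. The authors made HOMER tag directories and deposited a normalized tag signal per window, scaled to 10000000 tags. Per the file headers, nuclei lists hold normalized tags and a fold ratio over input. The deposited peak lists hold peaks reproducible by IDR with an enrichment score. The mapping and HOMER versions for these libraries are not given in the sources used here. The study's DESeq2 approach needs counts, so limma 3.58.1 with trend was fitted in R 4.3.3 to log2(tags + 1) after quantile normalization, over 55285 windows. Tags recovered from the values (100% whole within 0.05 tags) were tested with edgeR 4.0.16 and DESeq2 1.42.0. Scripts were tested on simulated data. Per-library values are given for every member with a called window, for the receptors, for the 6 highest and for the 5 most changed TSS windows. Members and lists were chosen with earlier results of these data known. Sequences are from RefSeq, GRCm38.p6. Overlaps are of at least 1 bp. The 2 libraries of a group were not copies of each other: their chi-square over its degrees of freedom was 2.90 (EKO) and 3.21 (WT). This check did not cover pairs across groups and cannot tell whether 2 libraries came from the same material.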

Additional observations from a re-analysis of the deposited data

Results flagged for a closer look

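Ifnar2 and Mx2 moved in opposite directions in different nuclei, with every EKO library on one side of every WT library in each. At the Ifnar2 start the EKO minus WT difference was 65.4 tags per kb in PU.1 nuclei, -7.00 in NeuN nuclei and -19.9 in Olig2 nuclei, and at the Mx2 start it was 63.0 in PU.1 nuclei and -11.7 in NeuN nuclei. These differences between nuclei were not tested. Over the 31 member starts, both EKO libraries were above both WT libraries at 16 in PU.1 nuclei and below at 0. In NeuN nuclei they were above at 0 and below at 4, and in Olig2 nuclei above at 1 and below at 2. The share of all genes with such opposite orders was not analysed here. PU.1 WT library 1 is the one with few listed regions. Against WT library 2 alone, Ifnar2 had 141 and 108 tags per kb in EKO and 81.9 in WT, and Mx2 had 160 and 154 in EKO and 131 in WT.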

How the results depend on the processing

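With the values as deposited, where all windows have a median of 0.28, gaining windows numbered 1 over all members, 1 distal, 0 promoter-side, 0 at start sites, 11 in the other pathway genes and 4 in the border-associated macrophage genes, 0 windows of members or other pathway genes lost, and the medians were 0.64 (members) and 0.76 (start sites). There Ifngr2 (0.0450) and Ifih1 (0.0139) turned above 0 at their starts. The member median was 0.35 with DESeq2 size factors, 0.39 with edgeR, 0.39 with DESeq2, 0.30 with a pseudocount of 5 and 0.25 above 32 tags. Above 32 tags, 15 member windows gained, 11 distal and 3 at start sites, with 20 gaining and 12 losing in the other pathway genes and 9 gaining in the macrophage genes. Losing member windows, all distal, numbered 1 with size factors, edgeR and DESeq2 and 0 with no filter or above 32 tags. Leaving out each library in turn, limma called 0 to 5 member windows gaining (distal 0 to 4, promoter-side 0 to 1, start sites 0 to 1) and 0 losing, with medians of 0.33 to 0.39, 0 to 16 gaining and 0 to 12 losing in the other pathway genes, and 0 to 7 in the macrophage genes; 3 libraries leave 1 residual degree of freedom and the lone sample is assumed to vary like the others. With edgeR, a choice made after seeing the data, the same omissions gave 22 to 33 gaining and 1 to 4 losing member windows, distal losing 0 to 3, promoter-side losing 0 to 2, member medians of 0.42, 0.38, 0.43 and 0.45 (start sites 0.47 to 0.60, with 0.59 without EKO library 2) and up to 37 losing in the other pathway genes. The share of all windows called in these edgeR fits was not analysed here. Also after seeing the data, 17 windows gained without Zbp1 and 17 stretches after merging. The top part of the SALL1 list by score overlapped 19 member windows, and PU.1 WT library 1 alone listed 9 starts. The replicate numbers did not pair the libraries (correlation of same-numbered deviations 0.04); with a replicate block 27 member windows gained and 2 lost.

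Depth limits the lowest windows: the starts of Ifit2, Rsad2 and Cmpk2 hold too few tags to test and Ifit1 has no window there, and the nuclei lists carry no depth.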
